A study of Felis catus with 12 samples.

Results

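The genes described here are those of the proteasome, taken as the rows of the deposited table whose symbols begin with PSMA, PSMB, PSMC, PSMD, PSME, PSMF or PSMG followed by a number. This rule found 47 of the 30785 listed genes, and 42 of them passed the filter on reads (at least 10 reads in at least 3 of 10 libraries), as did 8715 genes in all. The libraries came from the left ventricular free wall of cats (Felis catus), collected after death, and were sequenced directly as RNA on Oxford Nanopore flow cells, so that each read stands for 1 RNA molecule. There was 1 library per cat and no repeat library, with 4 barcoded libraries on each of 3 flow cells, called A, B and C here. The study's cats were client-owned, and most of them were euthanized because of a poor prognosis. For cat 29, the study's list gives ibuprofen intoxication as the reason for euthanasia. The RNA is that of bulk tissue, with no treatment in the labels. By the cat number in the labels, joined to the study's list of cats, 6 libraries belonged to cats with congestive heart failure (HF), 3 to cats with arterial thromboembolism (ATE) and 1 to a cat without known cardiac death. The labels name cats 22 and 29 for the other 2 libraries, which that list of sequenced cats does not hold, so they entered the comparison of flow cells and no comparison of outcome, age or fibrosis. Flow cell A carried cats 11, 23, 30 and 31, flow cell B cats 10, 15, 35 and 36, and flow cell C cats 22, 29, 37 and 38.

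The proteasome is the large protease that degrades proteins tagged with ubiquitin in the cytosol and nucleus. Its core particle is a barrel of PSMA (alpha) and PSMB (beta) rings, and the beta subunits encoded by PSMB5, PSMB6 and PSMB7 carry the cutting sites. The cap, built from PSMC ATPases and PSMD subunits, binds tagged proteins, removes the ubiquitin, unfolds the protein and feeds it into the core. Interferon induces PSMB8, PSMB9 and PSMB10, which replace the standard cutting subunits and so form the immunoproteasome, and PSME1 and PSME2, which form an alternative cap. In the heart the ubiquitin-proteasome system takes part in the turnover of contractile proteins and in the removal of damaged ones.

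Library depth ranged from 789257 to 2263110 reads on genes, and the proteasome genes together took between 0.568% (cat 30) and 0.731% (cat 15) of these reads. The deposited values are reads divided by 1 size factor per library, and 1 read was worth between 0.4826 and 1.431 of these units. All 12 cardiomyocyte markers looked at were detected, and the summed value of 5 skeletal muscle markers was at most 6.38 in any library. Cardiomyocyte markers summed to between 114058 and 185010 on flow cell A and to between 124183 and 250266 on the others. The largest part of these sums was MYL2 (149212 of the 185010 in cat 31), so they mostly describe that gene. Calls for the markers as single genes are given with the flow cells below. In bulk tissue, fewer cells of a type and less RNA per cell cannot be told apart.

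The 5 genes that did not pass the filter were PSMB11, PSMA8, PSMC3IP, PSMC1 and PSME2. PSMB11, the cutting subunit of the proteasome of the thymus, had 0 reads in every library. PSMA8, an alpha subunit known from the testis, had 3 reads, all in cat 30. PSMC3IP, which the rule finds by its name although it encodes a protein of meiotic recombination and no subunit, had 1 read. PSMC1, a cap ATPase, had 99 reads in all, between 1 and 15 per library. PSME2 had 102 reads, between 4 and 20 per library. PSMC1 belongs to the same ATPase ring as PSMC2, PSMC3, PSMC4, PSMC5 and PSMC6, whose totals ran from 1128 reads (PSMC4) to 4289 reads (PSMC3). How reads that map to more than 1 place were counted is not given in the sources used here, so the low totals of PSMC1 and PSME2 are uncertain as levels.

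No row carried the symbol PSMB8 or PSMB9, and both were found through RefSeq gene numbers instead, apart from the 47 genes. PSMB8 had 58 reads in all, between 0 and 18 per library, and PSMB9 had 28, between 0 and 7. In 3 libraries (cats 23, 30 and 38) PSMB8 had 0 reads, and a count of 0 allows values of up to 4.03, 2.53 and 2.21 there (3 reads, counting error only). Immunoproteasome subunits could therefore be followed between cats through PSMB10 alone, and through PSME1 for the inducible activator.

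Of the groups of subunits, the cap ATPases held the steadiest share of the proteasome reads across libraries, and the immunoproteasome subunit PSMB10 the least steady. The alpha subunits of the core took 25.9% to 33.5% of the proteasome reads, the structural beta subunits (PSMB1 to PSMB4) 5.94% to 9.92%, and the standard cutting subunits 8.86% to 14.1%. In the cap, the ATPases took 12.5% to 15.5%, the other base subunits (PSMD1, PSMD2 and PSMD4) 5.35% to 7.61%, and the lid, which includes the deubiquitinase PSMD14, 19.8% to 25.1%. Assembly chaperones took 3.83% to 6.46%, activators 2.31% to 4.16% and the inhibitor PSMF1 1.36% to 2.26%. PSMB10 ranged more widely, from 0.0680% of the proteasome reads in cat 35 to 0.648% in cat 29. These are shares of molecules read and were not corrected for gene length.

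The genes with the most reads were PSMA7 (10160), an alpha subunit, PSMD8 (6371), a lid subunit, and PSMA3 (6327), another alpha subunit. PSMA7 had values of 649, 568, 425 and 764 on flow cell A, of 763, 1404, 738 and 1244 on flow cell B and of 728, 899, 718 and 762 on flow cell C, each in the order in which the cats were listed above. It was highest in cats 15 and 36 and lowest in cat 30.

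Over the 12 libraries the coefficient of variation (CV, the SD divided by the mean) of the 42 genes had a median of 25.7%, against 40.0% for all 8715 genes. The median proteasome gene also had more reads (152 per library against 25.5), and counting error falls with reads, so that these medians are not on equal terms. In 33 of the 42 genes the CV was more than 2 times the value that counting error alone gives. The steadiest were PSMD2, a scaffold subunit of the base, with values between 159 and 212 (CV 9.19%, counting error 7.53%), and the lid subunit PSMD12, with values between 149 and 212 (10.6% against 7.68%). The widest spread among the 42 belonged to PSMD9, a chaperone of base assembly, with values between 1.78 and 21.3 (72.5%, counting error 35.5% on 106 reads), and to PSMB10 (62.8%, counting error 19.8%). PSMB3, a structural beta subunit, varied by 5.36-fold, from 19.1 in cat 15 to 102 in cat 31.

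Some libraries held the highest or lowest value of several of these genes. Cat 15 was the highest library for 12 of the 42 genes, among them 4 lid subunits (PSMD3, PSMD7, PSMD8 and PSMD13), PSMD4 and PSMA7. Cat 29 was the highest for 9, among them PSMB10 and all 3 standard cutting subunits. Cat 30 was the lowest for 9, of which 4 were alpha subunits. How often these libraries were highest or lowest among all tested genes was not examined, so the counts show no trait of the proteasome genes.

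**Figure D1:**
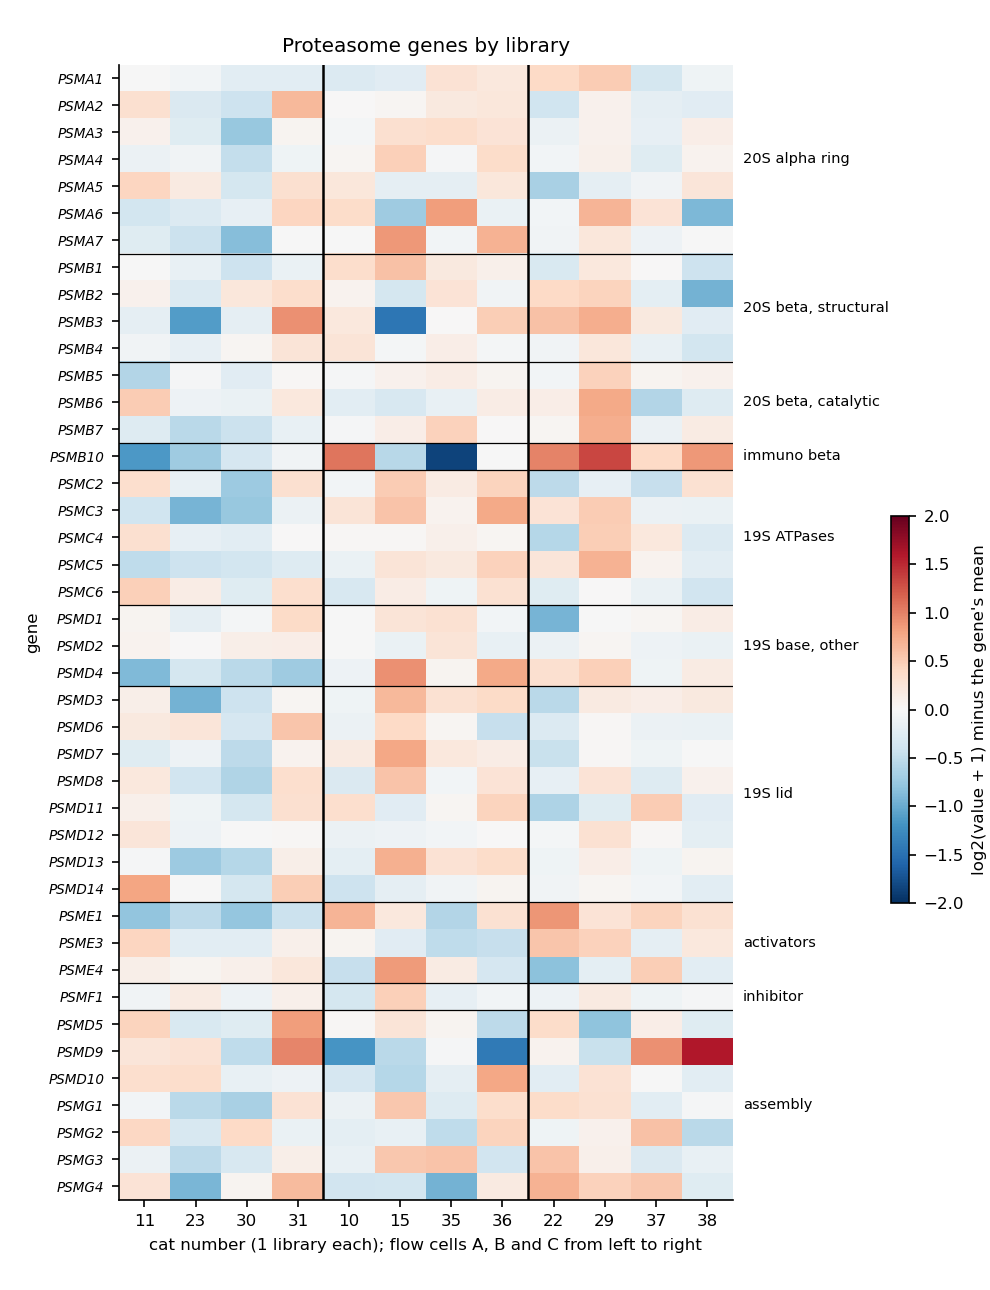
Values of the 42 tested proteasome genes in each library, as log2(value + 1) minus the mean of the gene over the 12 libraries (colour, from -2 to 2); columns are cats, rows are genes in groups by role. PSMB10 and PSMD9 have the strongest colours, and PSMD4, PSMC5 and PSME1 are blue in all 4 columns of flow cell A. Cat 15 is red for the lid genes PSMD3, PSMD7, PSMD8 and PSMD13, for PSMD4 and for PSMA7. It lies below the gene's mean for the lid genes PSMD11, PSMD12 and PSMD14.

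Subunits of the core and of the cap varied together in part. Over the 861 pairs that the 42 genes form, Spearman's rho across the 12 libraries had a median of 0.161 and was positive in 67.2% of the pairs, whereas over all pairs of the 8715 genes the median was 0.000. Among the 16 cap genes the median was 0.301, among the 14 core genes other than PSMB10 it was 0.259, and between core and cap it was 0.234. Once the flow cell means had been subtracted, these medians were 0.385, 0.308 and 0.304, and without cats 22 and 29 (10 libraries) they were 0.285, 0.200 and 0.206. Among the 3 tested activators the median rho was -0.385, and it was -0.280 with the flow cell means subtracted and -0.115 without cats 22 and 29. In the same order, the 3 standard cutting subunits of the core had -0.084, 0.469 and -0.479. The 3 base subunits of the cap other than the ATPases had -0.154, -0.315 and 0.042. The alpha, structural beta, ATPase and lid groups had positive medians in each of these settings. All pairs share the same libraries and their depth, and these values are descriptions.

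Some pairs were close. The ATPases PSMC3 and PSMC5 had a rho of 0.909, the lid subunits PSMD3 and PSMD13 one of 0.916, and the ubiquitin receptor PSMD4 and PSMC5 one of 0.902. The closest proteasome gene to PSMB10 was PSME1, and the reverse was also true, with a rho of 0.797 (0.842 without cats 22 and 29). PSMB10 had a rho of 0.364 with PSMB7, the standard subunit whose place it takes, and of -0.587 with PSME4, which encodes another activator. Without cats 22 and 29 these were 0.152 and -0.430. Flow cell means were not subtracted for the single pairs. In the close pairs, PSMC3, PSMC5 and PSMD4 had lower means on flow cell A (log2 differences of -0.82, -0.58 and -0.94). So did PSMD3 and PSMD13 (-0.45 each), and PSMB10 and PSME1 (-0.84 and -0.94). The part of the flow cell in these rho values was not tested.

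The labels give the flow cell and the barcode of each library, and 4 libraries on flow cell A were compared with the 8 on the others. Flow cell A held the HF cats 11, 30 and 31 and the ATE cat 23. The others held the HF cats 15, 35 and 37 and the ATE cats 10 and 38. They also held cat 36, without known cardiac death, and the unassigned cats 22 and 29. Each cat was on 1 flow cell only, so a difference between flow cells cannot be told apart from one between these cats. PSMD4, PSME1 and PSMC3 were lower on flow cell A, and none of the 42 genes was called higher. All 3 calls are of limma's test on log2(value + 1) with a Benjamini-Hochberg adjusted p under 0.05 over all 8715 genes. Of all genes, 305 were lower by this rule, which is 3.50%, and 141 were higher, which is 1.62%. The 42 log2 differences had a median of -0.05 (23 of them negative), and the median over all genes was 0.03.

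PSMD4, which encodes a receptor for ubiquitin chains in the base of the cap, had values of 78.2, 113, 99.3 and 87.7 on flow cell A, of 135, 274, 151 and 247 on flow cell B and of 182, 201, 136 and 162 on flow cell C. Every library of flow cell A lay below every other library. The means were 94.5 ± 14.96 (SD, n = 4) and 186 ± 51.37 (n = 8), with a log2 difference of -0.94 ± 0.22 (SE) and an adjusted p of 0.0216 (limma). Values that did not overlap in this direction were found for 3 of the 42 genes and for 2.51% of all genes. The other 2 such genes were PSMC5 and PSMB7, named after their values were seen.

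PSME1, the interferon-inducible activator subunit, had values of 41.0, 49.7, 41.2 and 52.6 on flow cell A, of 115, 83.1, 47.3 and 89.0 on flow cell B and of 132, 86.5, 97.3 and 89.0 on flow cell C. Cat 35 on flow cell B lay within the range of flow cell A, and the other 7 libraries lay above it. The log2 difference was -0.94 ± 0.24 (SE), with an adjusted p of 0.0321 (limma).

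PSMC3, an ATPase of the base, had values of 246, 169, 191 and 298 on flow cell A, of 387, 478, 340 and 546 on flow cell B and of 392, 462, 296 and 294 on flow cell C. The groups overlapped through cat 31, the highest on flow cell A, and cats 37 and 38. The log2 difference was -0.82 ± 0.21 (SE), with an adjusted p of 0.0341 (limma).

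The calls depended on single libraries, on the scaling and, for PSMC3, on the filter. Without cat 11 of flow cell A, and likewise without cats 22 and 29, 0 of the 42 genes were called (8 and 7 had an unadjusted p under 0.05), while the log2 differences stayed between -0.78 and -0.91 in all 3 genes. Without library size scaling 0 were also called (0 at an unadjusted p under 0.05). There the median of all genes moved to 0.41, and the 3 genes stood at -0.55, -0.55 and -0.43. Without cat 30 or without cat 10 only PSMD4 was called, and without cat 31 only PSMC3 was. Without cat 23, 15, 36 or 29 PSMC3 was lost, and PSMD4 and PSME1 were still called. When all genes with a read were tested, PSMC3 had an adjusted p of 0.0533 (limma) and 2 genes were called. edgeR's quasi-likelihood test on whole reads called 3 genes, and DESeq2 called 5, adding PSMC5 (-0.61) and PSMB7 (-0.54).

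Flow cell A also differed in heart muscle and connective tissue genes. Of the 12 cardiomyocyte markers, 7 were called lower on flow cell A and 0 higher, and their median log2 difference was -1.07. TTN, a defining cardiomyocyte gene, stood at 0.05 ± 0.18 (SE). Of the 7 fibroblast markers, 2 were called higher, and their summed value was 1172 to 3377 on flow cell A and 359 to 1881 on the others. None of the 12 leukocyte markers or 9 endothelial markers tested was called. The part of cell makeup in the lower values of PSMD4, PSME1 and PSMC3 was not tested.

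Within each group of subunits the differences were mixed. In the core, the alpha subunits ran from -0.58 (PSMA7) to 0.22 (PSMA5) on the log2 scale, with 0 of 7 called, and the structural beta subunits from -0.27 to 0.14, with 0 of 4 called. Among the standard cutting subunits, the differences were -0.31 ± 0.17 (SE) for PSMB5, which cuts after hydrophobic residues, 0.17 ± 0.23 for PSMB6, which cuts after acidic ones, and -0.51 ± 0.18 for PSMB7, which cuts after basic ones, with 0 of 3 called. The sign of the PSMB5 value depended on the scaling, since it was 0.09 without library size scaling. In the cap, 1 of 5 ATPases, 1 of 3 other base subunits and 0 of 8 lid subunits were called. The largest positive differences of all were those of PSMD9 (0.38 ± 0.54), PSMD14 (0.34 ± 0.20) and PSMD5 (0.28 ± 0.27), of which the first and the last assist in base assembly, and none of them passed the test.

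**Figure D2:**
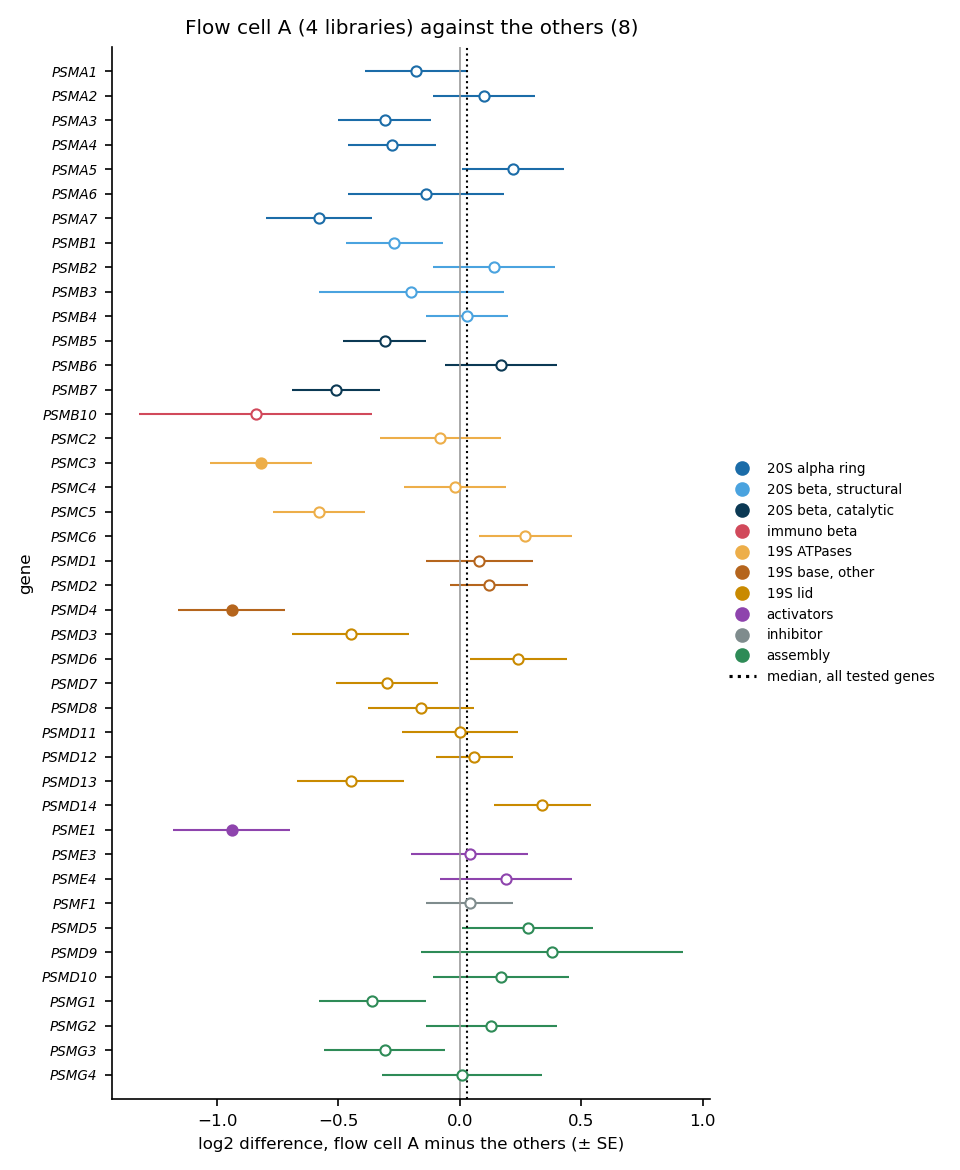
Log2 difference of each of the 42 genes between flow cell A (4 libraries) and the others (8), with bars of 1 SE; filled points have an adjusted p under 0.05 (limma) and the dotted line is the median of all tested genes (0.03). The 3 filled points are PSMC3 (-0.82), PSMD4 (-0.94) and PSME1 (-0.94), and no group of subunits lies wholly on one side apart from PSMB10 and PSMF1, which are groups of 1 gene.

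The cutting subunits and the activators differed in how they varied. PSMB10, which replaces PSMB7 in the immunoproteasome, had values of 9.653, 13.43, 17.68 and 21.54 on flow cell A, of 48.47, 14.98, 5.514 and 22.26 on flow cell B and of 45.91, 58.74, 30.04 and 41.92 on flow cell C. It was high in cats 10, 22, 29 and 38 and lowest in cat 35. The difference of flow cell A from the others was -0.84 ± 0.48 (SE) on the log2 scale, with an adjusted p of 0.326 (limma). PSMB7 was between 231 and 301 on flow cell A, between 330 and 462 on flow cell B and between 309 and 554 on flow cell C. PSMB5 ran from 240 in cat 11 to 497 in cat 29, and PSMB6 from 91.6 in cat 37 to 232 in cat 29.

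Set against PSMB7 within each library, PSMB10 reads came to between 1.19% (cat 35) and 14.7% (cat 10), with a median of 7.13%. On flow cell A the range was 3.43% to 7.16%, which lies inside that of the others. Gene lengths were not used, so only the change of this ratio between libraries can be read. PSMB8 reads came to between 0% and 4.67% of those of PSMB5, and the highest was cat 22.

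PSME1 and PSME2 had their highest values in cat 22, and the other inducible genes followed only in part. PSME1 was at 132 there, and PSME2 was at 27.0 (20 reads), against 2.94 to 13.3 elsewhere. PSMB8 was at 16.2 in cat 22, on 12 reads, and the next values were 10.9 in cat 15 (8 reads) and 8.69 in cat 11 (18 reads), so its order rests on few reads. PSMB9 was at 2.70 in cat 22 (2 reads), below cats 30 (5.89) and 37 (5.72). The summed value of the genes of the interferon response and antigen processing was 3780 in cat 22 and 921 to 1874 in the other 11 libraries. B2M, the light chain of class I molecules, also had its highest value there (697). TAP1, the peptide transporter, was at 0 reads in cat 22 and at no more than 15.8 in any library. PSMB10 did not follow this order, since cats 29 and 10 lay above cat 22.

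Across the 12 libraries PSMB10 had a rho of 0.490 with B2M, and PSME1 had one of 0.469. Without cat 22 (11 libraries) these were 0.418 and 0.309. Of 17 interferon and antigen processing genes tested, 0 were called between flow cells, with a median log2 difference of 0.07.

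**Figure D3:**
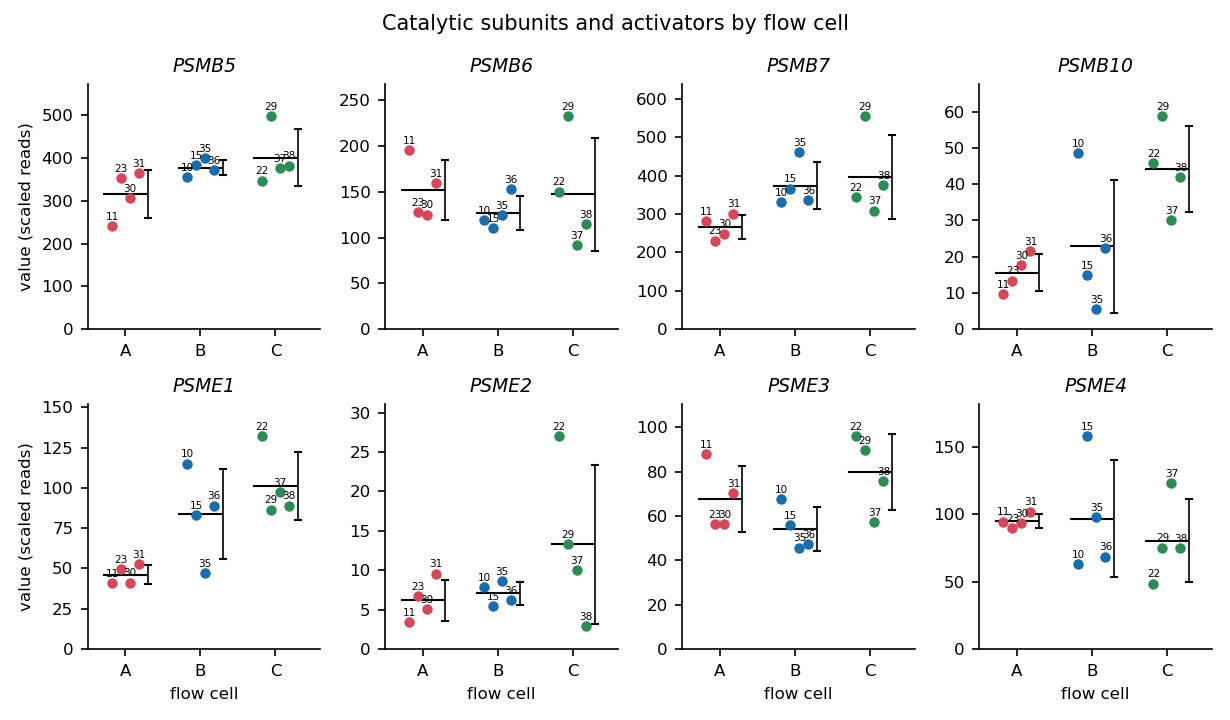
Values of 4 cutting subunits and 4 activator genes in each library (points, numbered by cat), with the mean (line) and SD (bar) of the 4 libraries on flow cells A, B and C; each vertical axis starts at 0. PSME1 is low in all 4 libraries of flow cell A (41.0 to 52.6), cat 22 is highest for PSME1 and PSME2, and PSMB10 spreads from 5.51 in cat 35 to 58.7 in cat 29.

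The other activators had patterns of their own. PSME3, the nuclear relative of PSME1 and PSME2, ran from 45.7 in cat 35 to 95.9 in cat 22. PSME4, a single large activator protein, ran from 48.6 in cat 22 to 158 in cat 15, the reverse order for cat 22. PSMF1, the inhibitor, lay between 103 in cat 10 and 184 in cat 15 (CV 15.5%). Flow cell A differed by 0.04 ± 0.24 (SE) for PSME3, 0.19 ± 0.27 for PSME4 and 0.04 ± 0.18 for PSMF1 on the log2 scale, and limma called none of them.

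Among the chaperones that build the alpha ring, PSMG1 ran from 97.6 to 225, PSMG2 from 18.4 to 41.5, PSMG3 from 24.2 to 52.8 and PSMG4 from 31.5 to 101. PSMG1 and PSMG2 form one pair and PSMG3 and PSMG4 another. PSMG1 was highest in cat 15 and PSMG2 in cat 37, while PSMG3 was highest in cat 35 (52.8) and cat 22 (52.7), and PSMG4 was highest in cat 22 (101) and lowest in cat 35. Their flow cell differences lay between -0.36 (PSMG1) and 0.13 (PSMG2), and limma called 0 of the 7 assembly genes.

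Of the other genes of the pathway, 21 were tested and 0 were higher on flow cell A. SEM1, a small lid subunit outside the naming rule, was lower there, at -0.66 ± 0.17 (SE) on the log2 scale with an adjusted p of 0.0358 (limma). SEM1 values were 144 to 197 on flow cell A and 207 to 315 on the others, with no overlap. POMP, the maturation protein of the core, stood at 0.37 ± 0.21, ADRM1, a further ubiquitin receptor of the cap, at -0.51 ± 0.26 and NFE2L1, a transcription factor that drives proteasome genes, at -0.51 ± 0.26, and limma called none of these.

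The cats with congestive HF were next compared with those with ATE, the outcomes that the study set against each other. None of the 42 genes passed the test, and neither did any of the 8715 genes (0%), by limma with a Benjamini-Hochberg adjusted p under 0.05. At an unadjusted p under 0.05, limma found 0 proteasome genes and 384 genes in all, edgeR's quasi-likelihood test 1 and 398, and DESeq2 1 and 427. After adjustment edgeR called 0 genes and DESeq2 called 1, no proteasome gene. The mean log2 value was higher in HF for 32 of the 42 genes, against 49.8% of all genes, and the median difference was 0.12, against 0.00 for all genes. The markers of cell types also differed in this comparison, with 0 called: their median difference was 0.46 for the leukocyte, 0.24 for the endothelial, -0.29 for the cardiomyocyte and -0.61 for the fibroblast markers, and their part in the values of the proteasome genes was not tested. The 42 genes share the same 9 cats and are not independent, and leaving out 1 cat at a time gave medians between 0.09 and 0.20.

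The largest differences lay among activators, chaperones and PSMB10. PSME4 had values from 93.4 to 158 in the 6 HF cats (median 99.9) and of 63.1, 90.0 and 75.0 in the 3 ATE cats, which did not overlap. This was so for 1 of the 42 genes and, in the same direction, for 1.18% of all genes. The log2 difference of PSME4 was 0.53 ± 0.26 (SE), with an adjusted p of 0.960 (limma), and it was 0.56 with flow cell as a covariate. PSMG4 stood at 0.54 ± 0.36 and PSMG2 at 0.46 ± 0.32.

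PSMB10 had values from 5.514 to 30.04 in the HF cats (median 16.3) and of 48.5, 13.4 and 41.9 in the ATE cats. The ATE cats 10 and 38 lay above all HF cats, and cat 23 lay among them. The log2 difference was -1.003 ± 0.519 (SE), with an adjusted p of 0.960 (limma), and it was -0.84 with flow cell as a covariate, -0.67 without cat 10 and -1.56 without cat 23. PSME1 followed at -0.48 ± 0.36, with -0.22 without cat 10 and -0.82 without cat 23, and PSMA5, an alpha subunit, at -0.22 ± 0.25. By group, all 8 lid genes and all 4 structural beta genes had a mean at least as high in HF as in ATE, with differences between 0.00 and 0.42 and between 0.11 and 0.45, of which 0 passed the test.

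**Figure D4:**
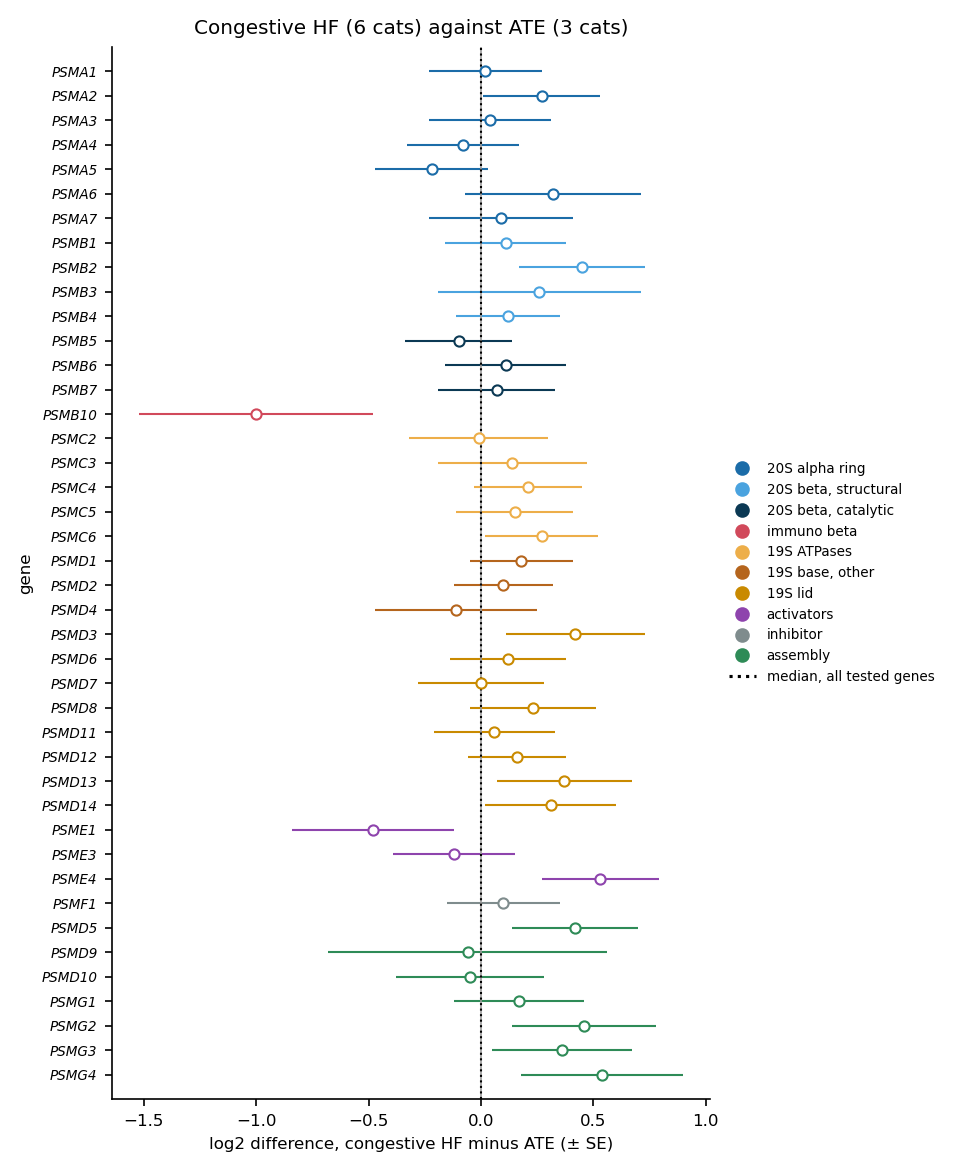
Log2 difference of each of the 42 genes between 6 cats with congestive HF and 3 cats with ATE, with bars of 1 SE; open points did not pass the test (limma), and the dotted line is the median of all tested genes (0.00). Points to the right are higher in HF, where 32 of the 42 lie, and PSMB10 is farthest to the left at -1.003.

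Age was examined over 9 cats by Spearman's rho and an exact permutation test (two-sided), in which the ages were reassigned among the cats. None of the 42 genes passed a Benjamini-Hochberg adjusted p under 0.05, and neither did any of the 8715 genes (0%). At an unadjusted p under 0.05 there were 3 proteasome genes and 415 genes in all (4.76%), and limma's slope gave 1 and 401 and called 0. With 9 cats the smallest two-sided p that permutation can give is 5.51e-06, at which a single gene would have an adjusted p of 0.0480, so a gene alone could pass only with a perfect rank order. The rho was negative for 38 of the 42 genes, and for 52.5% of all genes. The median rho was -0.292 and that of all genes was -0.017. It lay between -0.417 and -0.226 when 1 cat at a time was left out, and at -0.358 once the flow cell means had been subtracted. Library depth went with age in these cats. Cats 11, 31, 36 and 38, the youngest, had 1590898 to 2263110 reads on genes, and the older cats had 789257 to 1215345. The values are scaled for depth, but the part of depth in these rho values was not tested.

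The median rho was negative in every group of more than 1 gene but one. It was -0.433 in the alpha subunits of the core, -0.425 in the lid and -0.417 in the ATPases. It was -0.192 in the structural beta subunits, -0.267 in the standard cutting subunits, -0.217 in the assembly genes and -0.183 in the activators. The exception was the base subunits other than the ATPases, at 0.100. PSMB10 had -0.217.

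The gene with the lowest rho was PSMA5, at -0.867 (exact permutation p = 0.00451, adjusted p = 0.802), with a Pearson's r of -0.862 (exact permutation p = 0.00266). Its values in the 9 cats lay between 205 in cat 30, the oldest, and 354 in cat 11. Without the 2 cats farthest from the median age, r was -0.808 or -0.604, depending on which of 2 equally distant cats was left out beside cat 30. Within flow cells r was -0.898 (permutation p = 0.0104, ages permuted inside each flow cell). PSMA2, another alpha subunit, followed with a rho of -0.733 (exact permutation p = 0.0311, adjusted p = 0.897), and its r was -0.729 in all cats (exact permutation p = 0.0258), -0.620 or -0.749 without the farthest 2, and -0.834 within flow cells. PSMB3 had a rho of -0.717 (exact permutation p = 0.0369, adjusted p = 0.897) and an r of -0.636 (exact permutation p = 0.0673), which was -0.789 or -0.698 without the farthest 2 and -0.648 within flow cells.

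The highest rho values were 0.317 for PSME4, 0.167 for PSMD2 and 0.100 for PSMD4. Their exact permutation p-values were 0.410, 0.678 and 0.810. The values of PSMD2 and PSMD4 changed sign when single cats were left out.

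Myocardial fibrosis, as a percentage of tissue, was examined in the same way over 8 cats. None of the 42 genes passed the adjusted test (0% of all genes did). With 8 cats the smallest two-sided p that permutation can give is 4.96e-05, and a single gene at that p would have an adjusted p of 0.432 over 8715 genes, so 1 gene alone could not pass. At an unadjusted p under 0.05 there were 0 proteasome genes and 247 genes in all. limma's slope gave 1 and 230 and called 0. The rho was negative for 18 of the 42 genes, against 49.3% of all genes, and the median was 0.036 against 0.000. The largest positive values were those of PSMD6, a lid subunit, at 0.667 (exact permutation p = 0.0831), PSMF1 at 0.595 (exact permutation p = 0.132) and PSMC6 at 0.452 (exact permutation p = 0.267). Pearson's r was 0.736, 0.692 and 0.388 (exact permutation p = 0.0399, 0.0479 and 0.337), and without the 2 cats farthest from the median fibrosis it was 0.320, -0.314 and 0.339. Within flow cells r was 0.725, 0.710 and 0.304. These values rest on 7 cats, since cat 38 was alone on flow cell C in this comparison and dropped out. The value of PSMF1 thus rested on the farthest cats, and the relation of PSMD6 weakened without them. The largest negative rho values were those of PSMB2 at -0.524 (exact permutation p = 0.197), PSMB7 at -0.500 (exact permutation p = 0.216) and PSMB3 at -0.452 (exact permutation p = 0.267). Pearson's r was -0.297, -0.382 and -0.800 (exact permutation p = 0.488, 0.349 and 0.0250). Without the farthest 2 cats it was -0.0917, -0.351 and 0.157, and within flow cells (the same 7 cats) it was -0.933, -0.439 and -0.809. The value of PSMB3 rested on those 2 cats. With 1 cat left out, rho ran from -0.821 (without cat 38) to -0.286 (without cat 35) for PSMB2, from -0.786 (without cat 30) to -0.250 (without cat 35) for PSMB7 and from -0.571 (without cat 30) to -0.214 (without cat 15) for PSMB3.

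**Figure D5:**
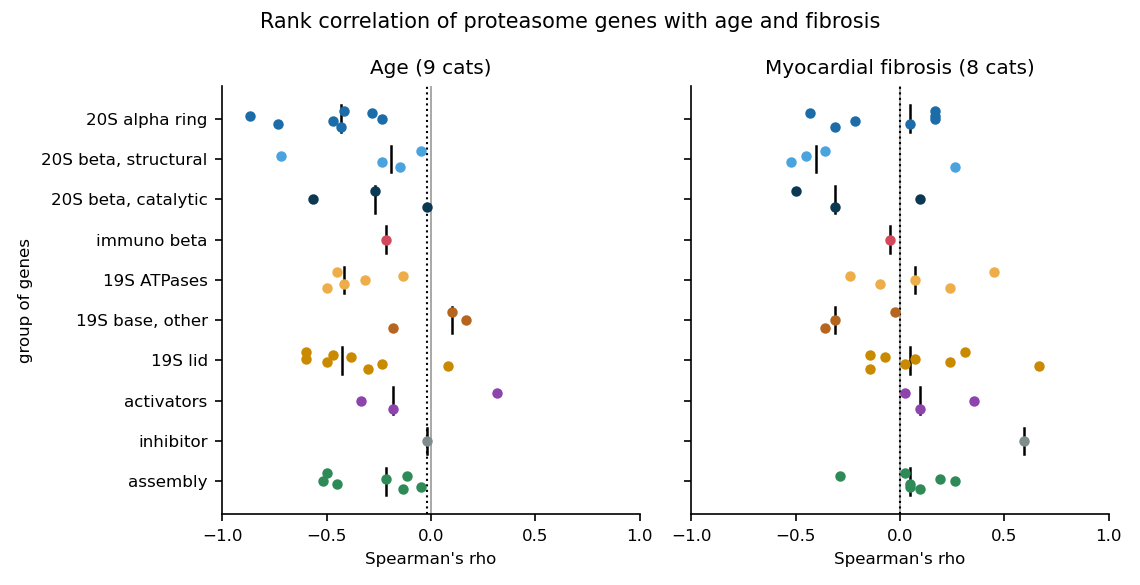
Spearman's rho of each of the 42 genes with age (9 cats, left) and with myocardial fibrosis (8 cats, right), by group of subunits; each point is a gene, short lines are group medians, and the dotted line is the median of all tested genes (-0.017 and 0.000). For age 38 of the points lie left of 0, with PSMA5 farthest at -0.867, and for fibrosis 18 do.

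The lists looked at beside these genes gave no call either. Of the 21 other pathway genes, 0 were called for outcome, age or fibrosis, with 12 of 21 negative for age (median rho -0.150), and the same held for the 17 interferon and antigen processing genes, with 8 of 17 negative for age (median rho 0.0667). Of the 12 leukocyte markers, 12 had a negative rho with age, and the median was -0.392. Of the 12 cardiomyocyte markers, 4 did, with a median of 0.0833. The part of leukocytes or other cells in the negative rho values of the proteasome genes was not tested.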

How the data were processed

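RNA of the left ventricular free wall of 12 cats was read as direct RNA with a SQK-RNA002 kit. Bases were called by the authors with Guppy, and after a quality filter Minimap2 placed the reads on felCat9 and FeatureCounts assigned them to genes. The authors deposited a signal per gene, the reads over 1 size factor per library: 100% of a library's values are a whole number of times its lowest step (relative tolerance 1e-06). The tests had been planned for either whole counts or such values, and limma on log2(value + 1) was used. A fold change on this scale understates that of genes with low values.

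The proteasome genes, their groups, the lists beside them and the tests were chosen with earlier results of these data known. A gene was tested where 3 or more of the 10 listed libraries held 10 or more reads of it, and all p-values were adjusted by Benjamini-Hochberg over 8715 genes. Flow cells come from the labels. Outcome, age and fibrosis come from the study's list of cats through the cat number in the labels, and 9 cats had an age and 8 a myocardial fibrosis percentage. Groups were compared with limma (intensity trend), and traits with Spearman's rho and a two-sided exact permutation test (40320 orders for 8 cats, 362880 for 9), with limma's slope beside it. With 1 library per cat, p-values measure the spread between these cats, and the libraries of a flow cell share a run. Depth was 789257 to 2263110 reads, and limits from a count of 0 (3 reads) cover counting error only.

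Genes named are the cutting subunits, activators, inhibitor and PSMG chaperones, every called gene, the genes with the most and fewest reads, the 3 largest effects in each direction per comparison, the genes below the filter, and fixed genes of the lists, plus any called. Other genes were named after their values were seen. Values of some genes of the lists are not reported here. Alternatives were unscaled reads, TMM-scaled log2 CPM, pseudocounts of 0.5 and 2, other filters, edgeR and DESeq2 on whole reads, flow cell as a covariate or centred, Pearson's r, total fibrosis, the libraries of cats 22 and 29 with their traits or left out, and each library left out. Pairwise values without those 2 libraries were added after seeing the data. Each test was tried on simulated data first. Rows named only by a RefSeq gene number were matched to symbols through a RefSeq gene table of another assembly than felCat9, so coordinates and sequences were not used here. The tools were limma 3.58.1, DESeq2 1.42.0 and edgeR 4.0.16 in R 4.3.3, and scipy 1.17.1, pandas 2.3.3, matplotlib 3.10.9 and numpy 2.4.6 in Python 3.11.15.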

Additional observations from a re-analysis of the deposited data

Results flagged for a closer look

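Among the 6 cats with congestive HF, cat 15 lay apart from the others for 3 genes by Dixon's ratio of the gap to the range. PSMA7 was 1404 in cat 15 and between 425 and 764 in the other 5 cats. PSMD4 was 274 there and between 78.2 and 151 in the others. PSMF1 was 184 there and between 117 and 141 in the others. The ratios were 0.654, 0.626 and 0.642, against a critical value of 0.625. In all, 112 groups of libraries were examined over 28 genes, 3 of them stood out, and chance alone marks about 1 group in 20. Cat 15 was sequenced on flow cell B with 975157 reads on genes, and 0.731% of these fell on proteasome genes, the highest share of the 12 libraries.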

How the results depend on the processing

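Leaving out each library in turn gave 0 to 3 proteasome genes called between flow cell A and the others, medians of -0.17 to 0.01 for that difference, of 0.09 to 0.20 for HF against ATE, of -0.417 to -0.226 for age and of -0.143 to 0.179 for fibrosis, and 0 genes called for outcome, age or fibrosis. The number called between flow cells was 2 with all genes with a read, 0 with unscaled reads, 0 without the libraries of cats 22 and 29, and 5 with DESeq2. Over all genes, 446 were called by limma (141 higher and 305 lower on flow cell A), 829 by DESeq2 (335 and 494), 435 by edgeR (190 and 245), 344 without cats 22 and 29, 80 with unscaled reads (75 and 5), 51 without cat 11 and 129 without cat 31. Unscaled reads moved the median difference between flow cells to 0.34, that between HF and ATE to 0.34, and the median rho to -0.633 for age and -0.393 for fibrosis, where the medians of all genes were 0.41, 0.21, -0.350 and -0.357. That setting keeps differences in depth between libraries. It also turned the signs of PSMB5 between flow cells (0.09), of PSME4 (-0.100), PSMD2 (-0.450) and PSMD4 (-0.400) with age, and of PSMD6 (-0.204), PSMF1 (-0.452) and PSMC6 (-0.333) with fibrosis. PSMD2 had a rho with age of -0.117 after centring on flow cells and of -0.190 to 0.476 with 1 cat left out. PSMD4 had -0.109 with cats 22 and 29 entered and -0.143 to 0.405 with 1 cat left out. The cause of these reversals was not tested. Of the other alternatives, 61 summary values were counted as unchanged. Among them, medians kept their direction or moved by less than the spread between libraries or cats. Numbers of called genes stayed equal or close, and those for outcome, age and fibrosis were 0 in every setting. PSMC1 and PSME2 entered only the fits over all genes with a read, which called neither, and PSMB8 and PSMB9 had too few reads for a comparison of groups.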
